A study of Mus musculus with 6 samples.

Results

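Immediate early genes are genes whose transcription rises within minutes of a stimulus without any new protein being made. The genes followed here were 10 of them, Fos, Fosb, Jun, Junb, Egr1, Atf3, Ier2, Ier3, Dusp1 and Nr4a1. They were taken by symbol from the gene table as 10 of its 24532 genes, and each was read in all 6 libraries of the series. They were selected on their values in these same libraries, within and between genotypes and tissues, so the levels and differences that follow describe these libraries and do not test a prediction.

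Growth factors, stretch, injury, heat and depolarization reach these genes through preformed factors, among them serum response factor (SRF), the ternary complex factors (ELK1, ELK4) and CREB, which are switched on by MAP kinases, RSK kinases and calcium signals. The products are mostly transcription factors that act on later genes, together with a few enzymes that shut the same pathways down, and both the mRNAs and the proteins are short-lived. In whole tissues the levels are known to respond to handling and cell dissociation as well as to signals that acted in the living animal.

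The libraries were bulk RNA-seq of mouse kidney and ureter at postnatal day 1 (PN1). Kidney was sampled in 2 Ahnak knockout (KO) and 2 wild-type (WT) libraries, and ureter in 1 library of each genotype, so the ureter comparison between genotypes has no replicate check. The KO mice were a whole-body line in which exon 5 of Ahnak, which encodes a very large scaffold protein, had been disrupted, and by the study's methods RNA was extracted from 2 to 4 kidneys or ureters, with the number of animals behind a library not stated there. The titles of both ureter samples called them kidney replicates numbered 3, whereas the tissue field called them ureter.

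The expression of marker genes followed the tissue field. The summed level of 6 kidney tubule markers was 1302 to 1586 CPM (counts relative to the scaled library total) in the 4 kidney libraries and under 1 CPM in both ureter libraries, where 5 of the 6 were at or under 3 counts. The 6 urothelium markers summed to 54.8 to 61.6 CPM in kidney and to 6972 and 6458 CPM in KO and WT ureter. Ahnak itself stood at 139 and 131 CPM in the KO kidney libraries, 184 and 190 CPM in the WT kidney libraries, 631 CPM in KO ureter and 728 CPM in WT ureter. It was lower in KO in every such comparison but far from 0, and a gene-level value does not show which exons were read. In kidney it was not called between genotypes (log2 fold change -0.47, adjusted p 0.99989 in edgeR). Both KO kidney libraries lay below both WT ones for 13.5% of genes. In ureter it was 1.15-fold lower in KO, and 35.4% of other genes were as low. Library totals were 55744703 to 66095616 estimated counts in kidney, 54985927 in WT ureter and 36410246 in KO ureter, and the ribosomal precursor Rn45s took 8.06% of the KO ureter counts against 0.496% to 0.632% elsewhere. In bulk RNA, fewer cells that express a gene and less of its RNA per cell cannot be told apart.

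Promoter sequences are shown for 4 of the genes because these 4 stand for the kidney patterns described below: Fos and Junb were lowest in KO kidney 2, while Nr4a1 and Dusp1 were high in KO kidney 1 and WT kidney 2. Each is the 250 bases before a start given by RefSeq (build GRCm38.p6), written 5′ to 3′ on the strand of the gene, except that the last 50 are left off for Dusp1, leaving 200. A gene can have several starts: the Nr4a1 window lies inside the span of the gene (chr15:101253902-101274795), before a start downstream of the outermost one. Capitals mark TGACG on either strand, the core of the cyclic AMP response element that CREB and ATF proteins bind. The regions are chr12:85473640-85473889 (plus strand), chr8:84978749-84978998 (minus strand), chr15:101266596-101266845 (plus strand) and chr17:26508523-26508722 (minus strand).
Fos: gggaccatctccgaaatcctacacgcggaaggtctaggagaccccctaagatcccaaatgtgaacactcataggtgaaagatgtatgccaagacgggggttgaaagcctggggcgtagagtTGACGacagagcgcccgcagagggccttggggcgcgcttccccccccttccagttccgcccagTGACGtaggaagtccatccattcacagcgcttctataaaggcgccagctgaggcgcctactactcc
Junb: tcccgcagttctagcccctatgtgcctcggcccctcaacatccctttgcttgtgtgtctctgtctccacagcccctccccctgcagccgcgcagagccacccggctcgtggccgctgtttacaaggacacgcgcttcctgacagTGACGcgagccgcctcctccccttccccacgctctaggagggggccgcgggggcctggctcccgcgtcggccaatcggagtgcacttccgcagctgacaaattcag
Nr4a1: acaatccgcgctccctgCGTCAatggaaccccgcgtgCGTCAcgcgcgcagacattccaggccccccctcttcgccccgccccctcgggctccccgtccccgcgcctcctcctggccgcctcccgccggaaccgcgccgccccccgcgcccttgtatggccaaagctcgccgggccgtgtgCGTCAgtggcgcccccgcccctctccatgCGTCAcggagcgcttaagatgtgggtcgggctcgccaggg
Dusp1: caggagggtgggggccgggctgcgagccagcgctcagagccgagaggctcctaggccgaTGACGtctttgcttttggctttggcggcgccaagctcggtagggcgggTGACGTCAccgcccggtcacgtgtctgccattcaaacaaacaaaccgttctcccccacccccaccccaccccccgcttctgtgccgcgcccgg

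RefSeq promoters were matched for 8 of the genes, with none for Egr1 and Ier2. TGACG, searched on both strands, was found in 6 of these 8, namely Fos, Fosb, Junb, Atf3, Dusp1 and Nr4a1, and in 17.8% of the 32851 promoter windows of the same length. The Fos window held 2 copies, beginning 129 and 66 bases before the start, and the Junb window held 1, at 106 bases. Fosb also held 1, at 60 bases, in a window of which 73 bases lie inside the gene span. The Nr4a1 window held 4 copies, all on the opposite strand. In Dusp1 a copy on each strand overlapped to give the full palindromic element TGACGTCA, which 1.55% of all windows held. The windows of Jun and Ier3 did not hold TGACG on either strand. A TATA box (TATAAA) was found in the Fos window alone among the 8 and in 12.4% of all windows, and the AP-1 motif TGANTCA and the CArG box that SRF binds were in none of the 8, against 6.75% and 1.47% of all windows. These are matches of letters within 250 bases, so sites further away were not searched, and nothing about binding was measured.

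Fos and Fosb, which encode the FOS-type partners of the AP-1 dimer, differed most between the kidney libraries. Fos stood at 84.5 CPM in KO kidney 1, 6.09 CPM in KO kidney 2, 43.2 CPM in WT kidney 1 and 41.4 CPM in WT kidney 2, and at 76.9 CPM in KO ureter and 361 CPM in WT ureter. The WT kidney libraries lay together, and the KO libraries lay on either side of them with a 13.9-fold gap. Fosb was at 25.0, 1.79, 7.03 and 4.74 CPM in the same 4 kidney libraries and at 34.9 and 41.4 CPM in KO and WT ureter. It repeated the kidney order of Fos, again with a 13.9-fold range, but was nearly as high in KO as in WT ureter. Its lowest value rested on 106 counts and that of Fos on 360.

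Jun and Junb encode the JUN-type partners, Junb being the weaker activator. Jun was at 191 CPM in KO kidney 1, 61.0 CPM in KO kidney 2, 108 CPM in WT kidney 1, 184 CPM in WT kidney 2, 110 CPM in KO ureter and 404 CPM in WT ureter. WT kidney 2 was thus close to the highest kidney library, and KO ureter lay inside the kidney range. Junb was at 50.2, 18.4, 26.4 and 21.5 CPM in kidney in that order, and at 147 and 320.0 CPM in KO and WT ureter. Both ureter libraries were above every kidney library for Junb.

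Egr1, a zinc-finger factor and one of the earliest genes to respond to MAP kinase signalling, was at 359 CPM in KO kidney 1, 98.4 CPM in KO kidney 2, 166 CPM in WT kidney 1 and 75.9 CPM in WT kidney 2. In ureter it was at 183 CPM in KO and 454 CPM in WT. For Egr1 the lowest library was WT kidney 2, not KO kidney 2, and KO kidney 1 was above KO ureter. Atf3, a stress-induced repressor of the CREB/ATF family, was at 13.7, 7.48, 5.06 and 11.8 CPM in KO kidney 1, KO kidney 2, WT kidney 1 and WT kidney 2, and at 17.7 and 42.1 CPM in KO and WT ureter. Each genotype had 1 kidney library with high and 1 with low Atf3, and the genotypes overlapped.

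Nr4a1, an orphan nuclear receptor, was at 36.1 and 15.4 CPM in KO kidney 1 and 2, 14.7 and 36.9 CPM in WT kidney 1 and 2, 60.8 CPM in KO ureter and 233 CPM in WT ureter. Dusp1, a phosphatase that switches off MAP kinases, was at 54.7 and 35.4 CPM in the KO kidney libraries, 33.0 and 57.5 CPM in the WT kidney libraries, and 59.3 and 167 CPM in KO and WT ureter. Both genes were high in KO kidney 1 and WT kidney 2 and low in the remaining kidney libraries, so that the KO and WT kidney means were nearly equal.

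Ier2 and Ier3 had the smallest ranges over all 6 libraries. Ier2, a nuclear protein, was at 67.3, 49.4, 56.5 and 42.5 CPM in KO kidney 1, KO kidney 2, WT kidney 1 and WT kidney 2, and at 74.0 and 143 CPM in KO and WT ureter. Ier3, linked to survival of stressed cells, was at 21.3 and 31.7 CPM in KO kidney 1 and 2, 18.1 and 14.8 CPM in WT kidney 1 and 2, and 25.5 and 35.4 CPM in KO and WT ureter. Ier3 was the gene of the 10 that went highest in KO kidney 2, and the one for which both KO kidney libraries lay above both WT kidney libraries, an arrangement seen for 12.7% of the 16481 genes tested in kidney.

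**Figure D1:**
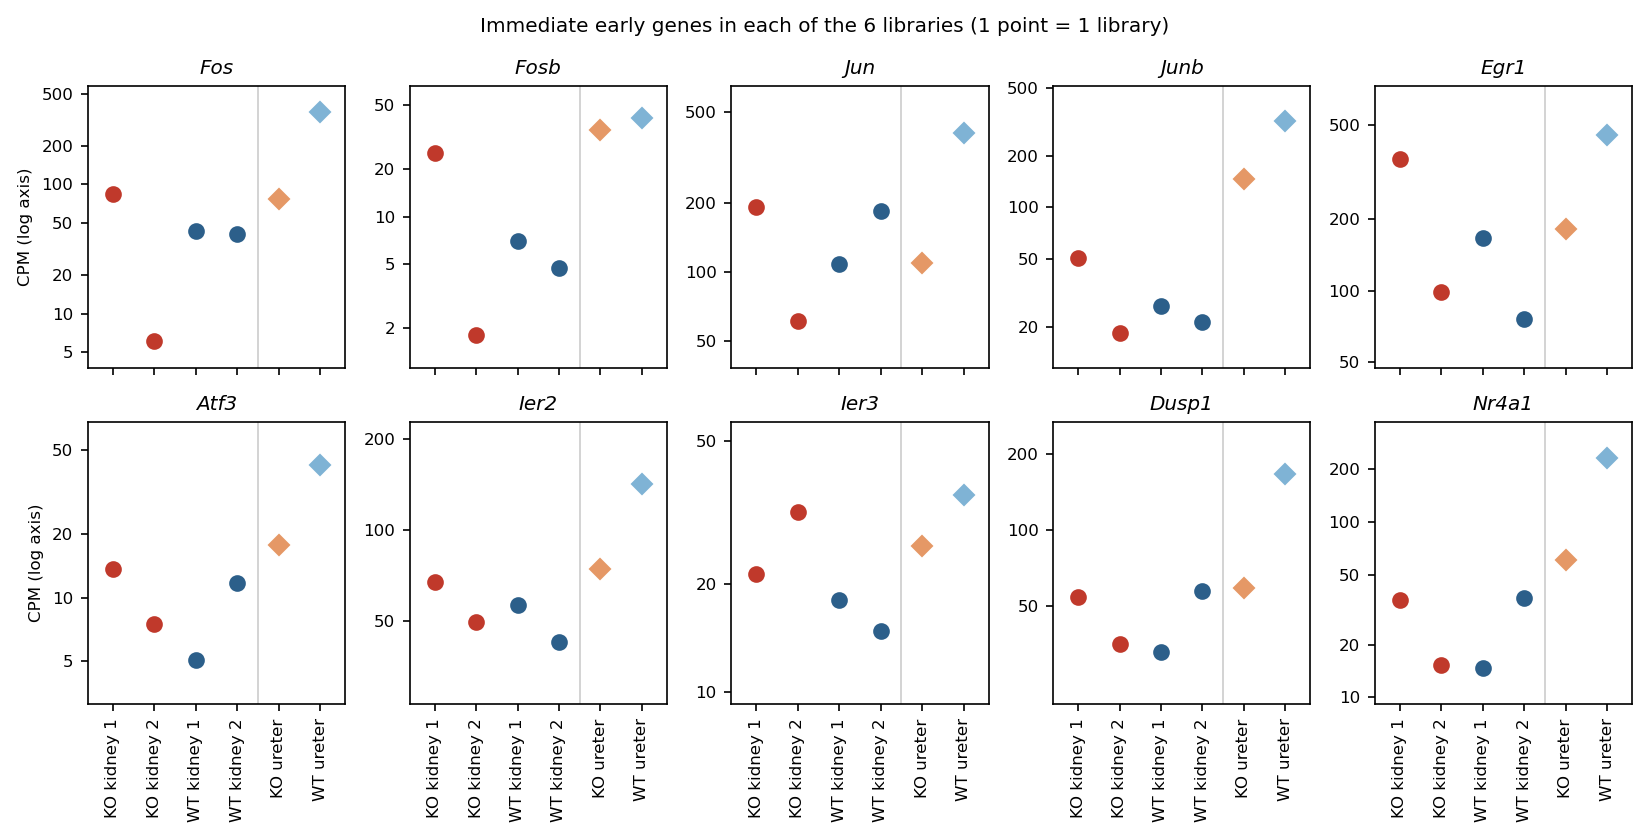
Level of each gene in each library, in CPM on a log axis whose range differs between panels; circles are kidney, diamonds ureter, red and orange KO, dark and light blue WT, and each point is 1 library. WT ureter is the highest point in all 10 panels, and the gap between the KO kidney points is widest for Fos and Fosb.

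Added over the 10 genes, the level was 903 CPM in KO kidney 1, 325 CPM in KO kidney 2, 478 CPM in WT kidney 1, 491 CPM in WT kidney 2, 788 CPM in KO ureter and 2200 CPM in WT ureter. WT ureter was the highest of the 6 libraries for 10 of 10 genes, whereas it was the highest for 19.7% of the 16873 genes tested over all libraries. In TPM, the deposited unit scaled for gene length, it was the highest for 9 of 10 (16.5% of all genes), since Ier3 was at 60 TPM in KO kidney 2 and 56.6 TPM in WT ureter. Within kidney, KO kidney 1 was highest for 7 of 10 and lowest for none, against 25.4% and 29.3% of all genes tested. KO kidney 2 was highest for 1 and lowest for 4 (background 25.1% and 23.9%). WT kidney 2 was highest for 2 and lowest for 3 (27.9% and 26.7%), and WT kidney 1 was lowest for 3 (19.7%). The order of the 4 kidney libraries in TPM was the same as in CPM for 9 of 10 genes, with Nr4a1 the exception, but the order of all 6 libraries was the same for 3 of 10.

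Levels of different genes were compared in TPM only. Egr1 was the most abundant in KO kidney 1 at 252 TPM and in WT kidney 1 at 116 TPM, Ier2 in KO kidney 2 at 66.8 TPM and Jun in WT kidney 2 at 124 TPM. In both ureter libraries Junb led, at 123 TPM in KO and 303 TPM in WT. Fosb was the scarcest in all 4 kidney libraries and in WT ureter, from 1.01 TPM in KO kidney 2 to 19.1 TPM in WT ureter, and Atf3 was the scarcest in KO ureter at 13.8 TPM. The leading gene was therefore not fixed within kidney.

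Between the KO kidney libraries, 6 of the 10 genes were over 2-fold higher in KO kidney 1 and none was over 2-fold lower, against 1.04% and 2.27% of the 16750 genes compared. These folds are ratios of CPM after adding 0.5, and 2-fold is 1 on the log2 scale. The log2 difference was 3.69 for Fos, 3.47 for Fosb, 1.86 for Egr1, 1.64 for Jun, 1.42 for Junb and 1.21 for Nr4a1. Atf3, Dusp1 and Ier2 were higher by 0.83, 0.62 and 0.44 on the log2 scale, and Ier3 was lower by a log2 difference of -0.56. The median absolute difference was 1.31 over the 10 genes and 0.20 over all genes.

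Of 16749 other genes compared, 6 were as much higher in KO kidney 1 as Fos was, and they are named here after their values were seen: Xist, Rps27, Atp6v0c, Hba-a1, Sap25 and Rbm47. Xist, the RNA that coats the inactive X chromosome, had 176348 counts in KO kidney 1 and 17 to 36 counts in every other library. The 4 Y-linked markers were each at or under 3 counts in KO kidney 1 and above that in the others. By these genes KO kidney 1 was female material and every other library male. Sex therefore cannot be told apart from other differences between KO kidney 1 and the rest. Rps27, a ribosomal protein gene, had 37469 and 36088 counts in KO kidney 1 and WT kidney 2 but 271 and 381 counts in KO kidney 2 and WT kidney 1, and Rbm47 stepped the same way with 5146 and 4989 against 342 and 579 counts. Apart from Xist, the estimated counts of single genes thus also held jumps larger than that of Fos. Those of Rps27 and Rbm47 followed the split of the kidney libraries seen for Nr4a1 and Dusp1. The part of these differences in the immediate early gene values was not tested.

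Between the WT kidney libraries the genes went in both directions. Egr1 was higher in WT kidney 1 by 1.12 on the log2 scale, while Nr4a1 and Atf3 were over 2-fold lower there, with log2 differences of -1.30 and -1.14. Altogether 3 of 10 genes differed by over 2-fold, compared with 1.96% of the 16859 genes compared. Dusp1 and Jun had log2 differences of -0.79 and -0.77, and Fos one of 0.06. The median absolute difference over the 10 genes was 0.65, and over all genes 0.19.

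The 4 pairs of kidney libraries that cross the genotypes depended on which KO library was used. Over all genes the median log2 ratio in these pairs ran from -0.0139 to 0.00154, so neither direction prevailed. Counts of 6 or 7 of 10 in a direction are near such an even split. KO kidney 1 had higher values than WT kidney 1 for all 10 genes, 4 of them by over 2-fold (background 0.939% higher), and than WT kidney 2 for 8 of 10, again 4 by over 2-fold (background 0.738%). KO kidney 2 had lower values than WT kidney 1 for 6 genes, 2 by over 2-fold (Fos and Fosb, background 0.456%). Against WT kidney 2 it had lower values for 7 genes, 4 by over 2-fold (Fos, Fosb, Jun and Nr4a1, background 1.03%), and Ier3 was over 2-fold higher (background 1.37%). Fos against WT kidney 1 was thus 1.95-fold higher in the one KO library and 6.63-fold lower in the other.

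**Figure D2:**
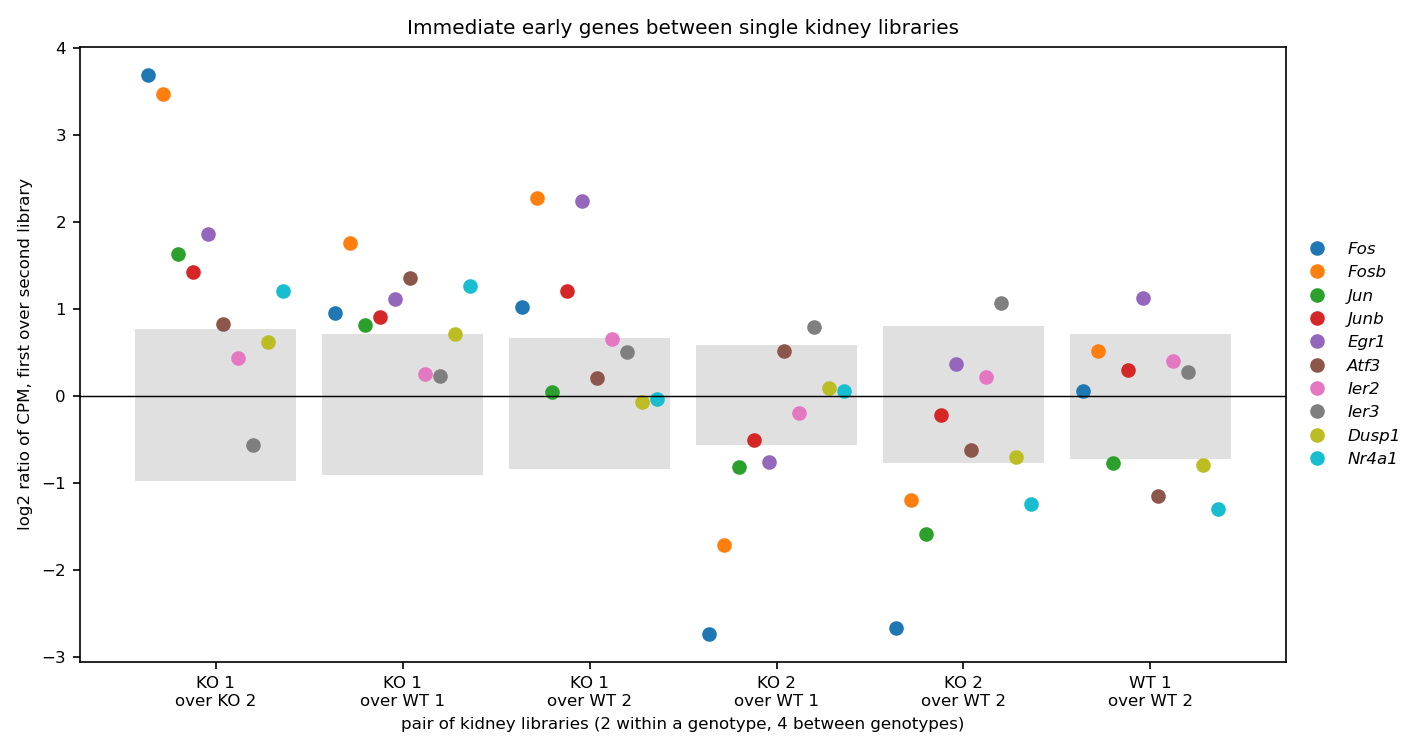
Log2 ratio of CPM for each gene (coloured points) in the 6 pairs of kidney libraries, with grey bars for the middle 95% of all genes in that pair. Fos lies at 3.69 in KO kidney 1 over KO kidney 2 and at -2.73 in KO kidney 2 over WT kidney 1, far outside the grey bars.

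Measured as the SD of log2 CPM over the 4 kidney libraries, the spread was 1.58 for Fos, 1.44 for Fosb, 0.99 for Egr1, 0.77 for Jun, 0.72 for Nr4a1, 0.63 for Junb and 0.61 for Atf3. Ier3, Dusp1 and Ier2 had SDs of 0.46, 0.41 and 0.28. The median SD was 0.67 for the 10 genes and 0.13 for the 12248 genes that averaged at least 300 counts in kidney, and an SD as large as that of Fos was reached by 0.278% of those genes.

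The kidney comparison of KO with WT asked whether loss of Ahnak goes with altered transcription in the newborn kidney. None of the 10 genes had an adjusted p under 0.05 in edgeR's quasi-likelihood test, which called 0.0121% of the 16481 genes, and none did with DESeq2. At an unadjusted p under 0.05, 1 of 10 passed in edgeR (Ier3), against 1.38% of all genes. The log2 fold change, KO minus WT, was 1.19 (SE 1.0) for Fosb, 0.92 (SE 0.617) for Egr1, 0.69 (SE 0.230) for Ier3 and 0.52 (SE 0.432) for Junb. The Fosb estimate depended on the model: it was 0.27 with the replicate block, and 0.37 and 0.22 in limma on log2 FPKM with pseudocounts of 1 and 0.1, below that of Egr1 in each. The main estimate was 0.10 (SE 0.966) for Fos and -0.21 (SE 0.515) for Jun. The means of Fos, 45.3 ± 55.4 CPM in KO and 42.3 ± 1.27 CPM in WT (SD, n = 2 each), were close, with the SD in KO larger than its mean. The median log2 fold change was 0.29 over the 10 genes and -0.0034 over all genes tested.

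Which KO kidney library was kept decided these values, and by the sex-linked genes above the KO kidney libraries also differed in sex. Without KO kidney 1 the log2 fold change of Fos was -2.79 and that of Fosb -1.71, and Fos was the gene called, with 0.272% of all genes called in that fit. Without KO kidney 2 they were 1.0 and 2.08, and both were called, with 0.516% of all genes called. With a lone KO library left, its spread is taken from the WT pair, so these calls compare a library with the WT kidneys. The p-values measure only the spread between these libraries, which may be partly technical.

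**Figure D3:**
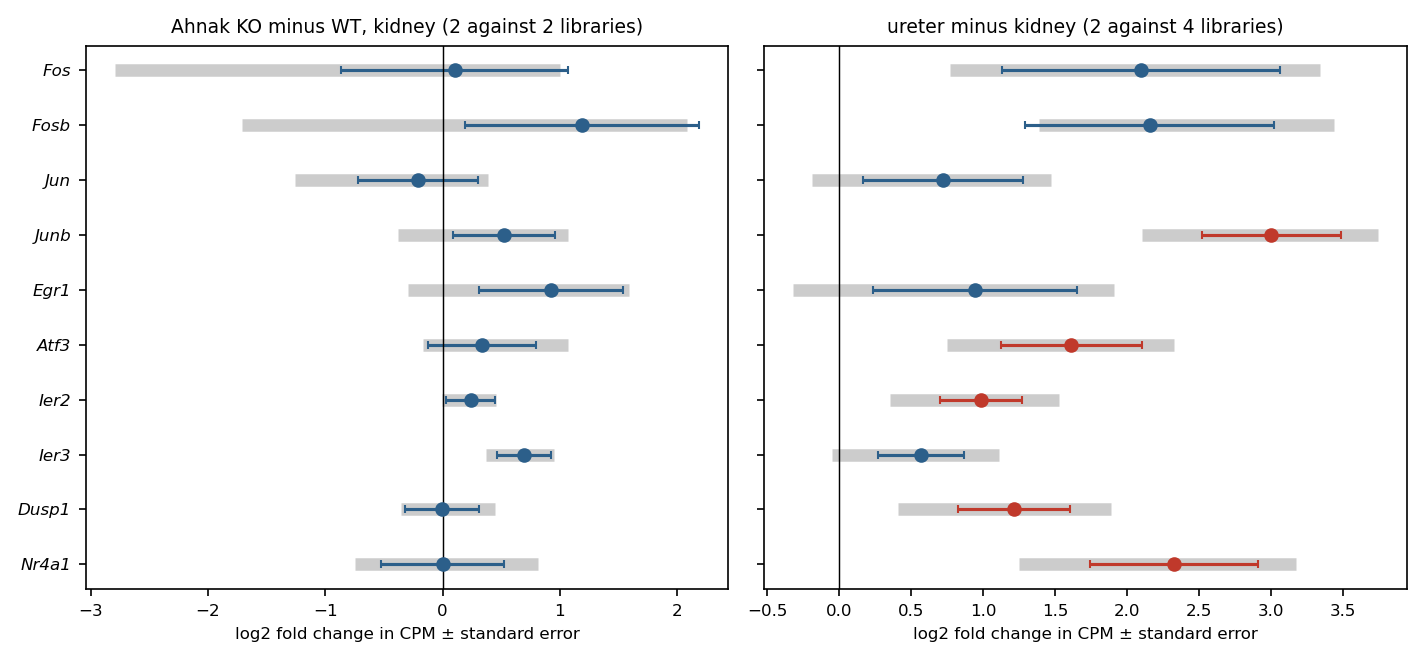
Fitted log2 fold change (points) with its standard error (bars) for KO minus WT in kidney and for ureter minus kidney; grey bands span the values found when each library was left out in turn, and red marks an adjusted p under 0.05. In the kidney panel the grey bands of all genes except Ier3 cross 0, and those of Fos and Fosb are the widest. In the tissue panel all 10 points lie right of 0, but the bands of Jun, Egr1 and Ier3 cross it.

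In the comparison of tissues, with genotype in the model, the fitted level of all 10 genes was higher in ureter than in kidney, a direction that 45.8% of the 16873 genes had. An adjusted p under 0.05 in edgeR was reached by 5, against 21.4% of all genes higher and 23.7% lower. They were Junb (log2 fold change 3.0, SE 0.483), Nr4a1 (2.32, SE 0.585), Atf3 (1.61, SE 0.491), Dusp1 (1.21, SE 0.389) and Ier2 (0.98, SE 0.285). Fosb and Fos had estimates of 2.16 (SE 0.867) and 2.1 (SE 0.967), and Egr1, Jun and Ier3 of 0.94, 0.72 and 0.57, and these 5 did not pass. The median was 1.41 over the 10 genes and -0.076 over all genes. Both ureter libraries lay above all 4 kidney libraries for 6 of the 10 genes, Fosb, Junb, Atf3, Ier2, Dusp1 and Nr4a1, as they did for 28.0% of all genes. In TPM they did so for 3 of the 10, Fosb, Junb and Nr4a1, and for 16.8% of all genes.

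WT ureter carried much of this difference. In the KO libraries alone the median log2 difference between ureter and kidney was 0.55, and in the WT libraries alone it was 2.08. Without WT ureter only Junb stayed past the threshold, at 2.1, and the estimates of Jun, Egr1 and Ier3 were -0.19, -0.32 and -0.049. The share of all genes called higher in that fit was 16.7%. Of the 10, Junb alone was past it also without WT kidney 2 (16.8% of all genes), whereas 9 genes were without KO kidney 1 (19.8%). Scaling by library size alone, in place of edgeR's trimmed mean (TMM), moved the median of all genes to -0.36, the share of all genes called from 21.4% to 14.1% higher and from 23.7% to 36.2% lower, and left 2 of the 10 genes called, Junb and Nr4a1.

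In ureter, where each genotype was 1 library, all 10 genes were lower in KO than in WT, as were 51.8% of the 16117 genes compared. Of the 10, 7 were lower by over 2-fold, against 5.78% of all genes lower and 4.44% higher by that much. With the pair scaled on its own, Fos was at 67.6 CPM in KO and 316 CPM in WT, 4.64-fold lower (log2 ratio -2.21). Nr4a1 was 3.79-fold, Jun 3.65-fold, Dusp1 2.78-fold, Egr1 2.47-fold, Atf3 2.33-fold and Junb 2.16-fold lower. Ier2, Ier3 and Fosb were 1.91-fold, 1.37-fold and 1.18-fold lower. The median log2 ratio was -1.26 over the 10 genes and -0.021 over all genes. Of all genes past 2-fold, 56.6% were lower in KO with TMM scaling and 70.7% with library size alone, where 8 of the 10 genes were past it and the median of all genes was -0.20.

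**Figure D4:**
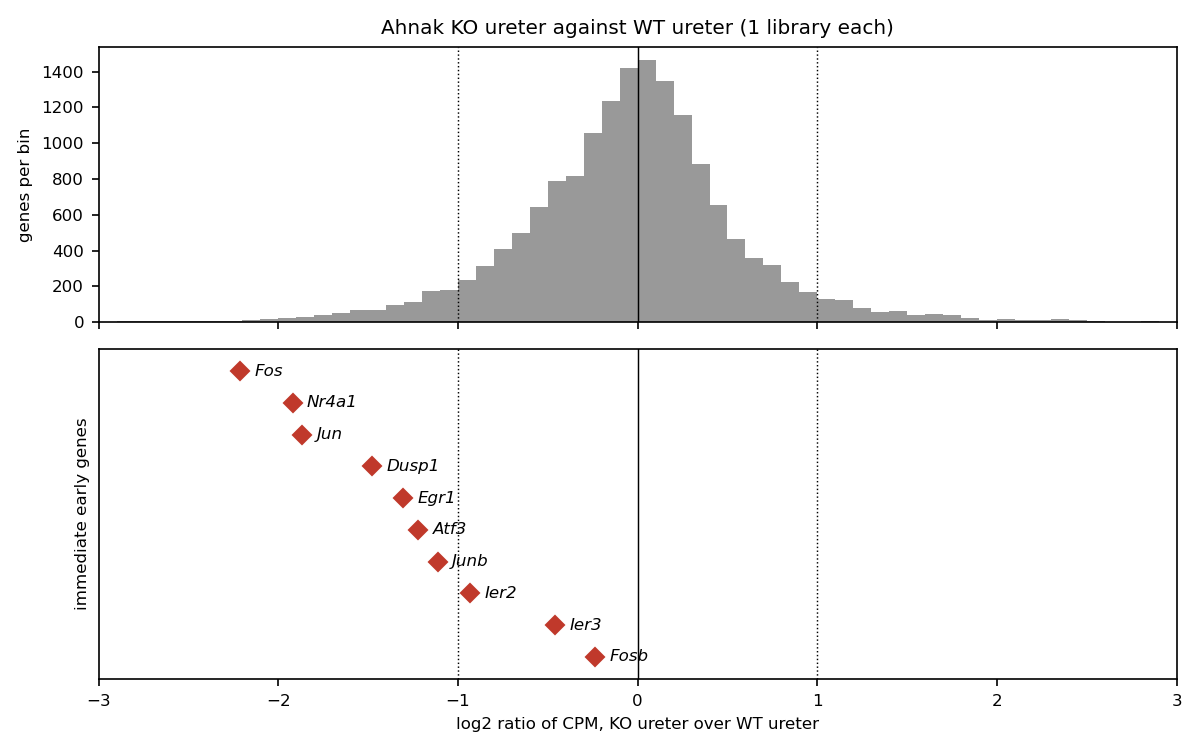
Log2 ratio of CPM, KO ureter over WT ureter, for all 16117 genes compared (upper panel, genes per bin of width 0.1) and for the 10 genes (lower panel); dotted lines mark 2-fold. The 10 points run from -2.21 for Fos to -0.24 for Fosb, all left of 0, and 7 lie past the left dotted line.

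Marker levels also differed between the ureter libraries. Red blood cell markers (5 genes) summed to 659 CPM in KO and 1401 CPM in WT with 3 lower in KO. Hba-a1 and Hbb-bt went the other way, at 479 and 171 CPM in KO against 87.9 and 1.28 CPM in WT. Hba-a2 and Hbb-bs were at 0.267 and 0.0334 CPM in KO against 527 and 764 CPM in WT. Single globin genes thus switched between the libraries, and their sum is not read as an amount of blood. Striated muscle markers (6 genes) summed to 329 and 615 CPM in KO and WT with all 6 lower in KO. Leukocyte markers (6 genes) summed to 95.4 and 137 CPM with 2 lower in KO. These were S100a8 and S100a9, at 15.8 and 23.9 CPM in KO against 39.6 and 58.5 CPM in WT. Ptprc, Adgre1 and Csf1r were higher in KO, and Cd3e had no counts in either ureter library. Urothelium markers were at 6972 and 6458 CPM, smooth muscle markers at 6836 and 7574 CPM and endothelium markers at 444 and 468 CPM. The part of these differences, and of the higher Rn45s share in KO ureter, in the lower immediate early gene levels was not tested.

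The difference between the genotype effect in ureter and that in kidney was negative for all 10 genes, from -2.32 for Fos to -1.15 for Ier3 on the log2 scale. It was above 0 for 50.2% of the 16873 genes tested. An estimate lower by over 2-fold was found for all 10 and for 10.1% of all genes. With 1 ureter library per genotype, the spread in this test came from the kidney replicates alone. The ureter libraries were assumed to vary alike, so its p-values do not measure variation between ureters. No gene of the 10 passed an adjusted p of 0.05 in edgeR (background 0.113%) or in DESeq2, and 3 had an unadjusted edgeR p under 0.05, Ier2, Ier3 and Dusp1 (background 12.8%). A difference in genotype effect between the 2 tissues was therefore not shown. Without KO kidney 1 the estimate was 0.58 for Fos and 1.48 for Fosb, and without KO kidney 2 there were 4 genes called, Fos, Fosb, Jun and Junb, with 1.53% of all genes called. In these reduced fits the spread rests on the WT kidney pair alone, since every other group is 1 library.

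Related genes are given as counts beside the shares of all genes, which between tissues were 21.4% higher and 23.7% lower, or 14.1% and 36.2% with library size alone, and in the ureter pair 4.44% higher and 5.78% lower by over 2-fold. Of 16 other immediate early transcription factors tested, 7 were higher in ureter and none lower, and 5 and none with library size alone. Klf4 and Klf6, Krüppel-like factors, had log2 fold changes of 2.17 (SE 0.226) and 1.81 (SE 0.161), and Mafk, a small MAF protein, 1.96 (SE 0.175). Unlike the 10 genes, Klf4 and Klf6 were not lower in KO ureter, at 74.4 and 267 CPM in KO against 72.1 and 249 CPM in WT. Bhlhe40, a repressor of the circadian clock, went from 37.9 CPM in WT ureter to 9.88 CPM in KO ureter. Egr3 went the other way, from 1.34 CPM in WT ureter to 4.47 CPM in KO ureter. Of 17 genes of this list compared in the ureter pair, 2 were over 2-fold higher and 3 lower in KO. The list's median log2 fold change was 1.10 between tissues, and its median log2 ratio in the ureter pair was -0.18.

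Of 37 other immediate early regulators and effectors, 16 were higher and 4 lower in ureter (12 and 7 with library size alone). Btg2, an antiproliferative gene, was at 123 CPM in KO ureter and 566 CPM in WT ureter, and Zfp36, which destabilizes AU-rich mRNAs, at 69.4 and 302 CPM. Their log2 ratios were -2.19 and -2.11, next to that of Fos. The chemokine Ccl2 went the other way, at 13.5 CPM in KO ureter and 2.98 CPM in WT ureter. In kidney, Ccn1, a matrix protein and SRF target named here after its values were seen, was at 174 and 177 CPM in KO kidney 1 and WT kidney 2 and at 68.4 and 65.9 CPM in the others, as Nr4a1 was arranged. Over the whole list 7 genes were over 2-fold lower and 2 higher in KO ureter, with a median log2 ratio of -0.024.

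For the upstream factors and kinases the counts were near the shares of all genes. Of 22 tested, 4 were higher and 5 lower in ureter, with a median log2 fold change of 0.096 that turned to -0.19 with library size alone, and none differed by over 2-fold between the ureter libraries or between any pair of kidney libraries. Mapk3, the kinase ERK1, had a log2 fold change of 0.94 (SE 0.0927), and Rps6ka3, the kinase RSK2, one of -0.85 (SE 0.0979). Srf itself, named for its role, was at 54.5 CPM in KO ureter and 82.7 CPM in WT ureter, and at 55 to 68.4 CPM in kidney. Of 10 bZIP partners of Fos and Jun tested, some of which the other lists also hold, 3 were higher and 1 lower in ureter, with a median of 0.10 that turned to -0.18 with library size alone. Fosl2, a further FOS-type factor, had a log2 fold change of 1.27 (SE 0.163). No gene of these lists, or of the other immediate early lists above, was called in kidney between genotypes. The fitted change, KO minus WT, was above 0 for 14 of 16 transcription factors and 29 of 37 regulators and effectors. It was above 0 for 13 of 22 upstream genes, 7 of 10 bZIP partners and 49.1% of all genes. Between KO kidney 2 and WT kidney 2 alone, the first 2 lists had 10 of 16 and 22 of 37 genes higher in KO. These directions were not tested.

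Heat shock genes answer protein-damaging stress through a separate factor. Hspa1a, an inducible HSP70 gene, was at 17.1, 20.2, 22.9 and 176 CPM in KO kidney 1, KO kidney 2, WT kidney 1 and WT kidney 2, and at 48.0 and 174 CPM in KO and WT ureter. Its near-identical neighbour Hspa1b, with which it shares reads, was at 24.2, 35.0, 36.2 and 225 CPM in kidney and 93.5 and 250 CPM in ureter. WT kidney 2 and WT ureter thus stood apart for both, and KO kidney 1, highest for 7 of the 10 immediate early genes among the kidney libraries, was lowest. Other heat shock genes were arranged otherwise: Hsp90aa1, at 587, 481, 460 and 609 CPM in the 4 kidney libraries, and Hsph1, at 78.6, 59.2, 65.2 and 105 CPM, were high in KO kidney 1 and WT kidney 2, as Nr4a1 and Dusp1 were. Of 11 heat shock genes, 3 were higher and 1 lower in ureter than in kidney (3 and 5 with library size alone), and 3 were over 2-fold lower in KO ureter.

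The genes most like the 10 across the libraries were sought by Pearson's r with the mean of their standardized log2 CPM over 6 libraries, among 14668 other genes. The closest were Hist1h1c, a linker histone (r = 0.992), Med14, a Mediator subunit (r = 0.992), and Npas4, a calcium-induced immediate early factor (r = 0.992). Npas4 was at 0.372 to 1.34 CPM in kidney, 1.57 CPM in KO ureter and 6.26 CPM in WT ureter, so it was scarce throughout. Med14 and the calmodulin gene Calm3 had the same order of libraries as each other with a far smaller range, Calm3 from 268 CPM in KO kidney 2 to 344 CPM in WT ureter. Among the 10 themselves r ran from 0.53 for Ier3 to 0.96 for Ier2. Each of the 10 is part of the mean it was compared with, which raises its r, so these values are not comparable with those of the other genes. The 6 points share library depth and the high WT ureter value, and these r values are given as a description.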

How the data were processed

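Kidney and ureter of Ahnak KO and WT mice were sequenced as 6 poly(A) RNA libraries, grouped by their tissue and treatment labels. Per the labels, the submitters' processing notes name Trimmomatic 0.38, HISAT2 2.1.0, StringTie 1.3.4b and mm10, whereas the study's methods name Cutadapt, STAR, Cufflinks and GRCm39, and the deposited table does not settle which made it. The authors deposited estimated read counts (whole numbers), FPKM and TPM per gene in 1 table. For 27 symbols that read as calendar dates, the name was looked up by gene number in RefSeq.

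The deposited estimated counts were tested in edgeR 4.0.16 (R 4.3.3) by the quasi-likelihood test after TMM scaling, with Benjamini-Hochberg adjustment over all genes tested: genotype in kidney (2 against 2), tissue with genotype as a second term (2 against 4), and the difference in genotype effect. CPM came from TMM over 6 libraries, and in the ureter pair from its own scaling, with no test. Single-library ratios added 0.5 CPM and covered genes whose larger count of the pair reached 10. DESeq2 1.42.0, limma 3.58.1 on the deposited FPKM, other scalings and filters, a replicate block and leaving out each library were the alternatives.

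The tests were first tested on simulated counts with known changes. At a dispersion (variability between replicates) of 0.05, a log2 change of 1 was recovered in 29% of cases for genotype in kidney. It was recovered in 46% between tissues and in 3% for the difference in genotype effect. A log2 change of 2 was recovered in 100%, 100% and 27%. The common dispersions fitted to the data, each 1 value over all genes, were 0.0540, 0.0724 and 0.0560. Every simulated gene had the same dispersion, but the 10 genes varied more than most. Their median SD over the kidney libraries was 0.67, against 0.13 for genes averaging at least 300 counts. Fos and Fosb did not pass between tissues at log2 estimates of 2.1 and 2.16. The recovered shares therefore do not carry over to the 10 genes. The genes, the related lists and the markers were chosen with earlier results of these data known. Named besides them were listed genes past the tissue threshold or furthest apart in the ureter pair (at most 4 per list and comparison), and the 10 genes most like them.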

Additional observations from a re-analysis of the deposited data

Results flagged for a closer look

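Among the 44 genes examined, which were the 10 immediate early genes and the listed genes named by rule, 6 had both KO kidney libraries above both WT kidney libraries while KO ureter was below WT ureter. Over the members and all related lists, 11 of 102 genes had this arrangement, and 4.86% of the 15748 genes tested did. The ureter side of this contrast is 1 library per genotype. The log2 ratio of KO over WT ureter was -0.46 for Ier3, -0.38 for Fosl2, -0.18 for Mafk, -1.14 for Csrnp1, -0.87 for Plk3 and -0.067 for Atf2. Tested as a difference of genotype effects in edgeR, none passed: the adjusted p was 0.326 for Ier3, 0.223 for Fosl2, 0.365 for Mafk, 0.147 for Csrnp1, 0.0823 for Plk3 and 0.786 for Atf2. Plk3, a stress-responsive kinase, was at 12.9 and 13.9 CPM in the KO kidney libraries, 6.15 and 6.42 CPM in the WT kidney libraries, 31.4 CPM in KO ureter and 58.1 CPM in WT ureter. Csrnp1, a nuclear factor, was at 17.4 and 13.3 CPM in KO kidney, 9.24 and 9.18 CPM in WT kidney, 16.8 CPM in KO ureter and 37.9 CPM in WT ureter.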

How the results depend on the processing

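The smallest member count was 106, and a genotype had 2 kidney libraries and 1 ureter library. Kidney replicate numbers are shared by the genotypes, but same-numbered libraries did not deviate together (r = -0.193 over 16481 genes). With the replicate number as a block, 0 of the 10 genes were called in kidney and the log2 fold changes of Fos, Dusp1 and Nr4a1 turned sign, to -0.87, 0.0168 and 0.0197. With the numbers crossed, an alternative chosen after seeing the data, 0 were called, and they were -0.85, 0.0164 and 0.0181. Fosb was 0.27 with the block and 0.31 with the numbers crossed. Fos was also negative in limma on log2 FPKM, at -0.76 with a pseudocount of 1 and -0.90 with 0.1. Nr4a1, at 0 within its error, was 0.000623 with DESeq2 size factors and 0.000903 with at least 10 counts in every library. The cause of these turns was not tested.

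Leaving out each kidney library in turn gave 0 to 2 genes called and a median log2 fold change of -0.37 to 0.60. The ranges were -2.79 to 1.0 for Fos, -1.71 to 2.08 for Fosb, -1.26 to 0.39 for Jun, -0.38 to 1.07 for Junb, -0.30 to 1.59 for Egr1, -0.17 to 1.07 for Atf3, -0.0037 to 0.46 for Ier2, 0.37 to 0.95 for Ier3, -0.36 to 0.45 for Dusp1 and -0.75 to 0.81 for Nr4a1. Between tissues, leaving out each library gave 1 to 9 genes called and a median of 0.58 to 2.12, with Jun from -0.19 to 1.47, Egr1 from -0.32 to 1.91 and Ier3 from -0.049 to 1.11. For the difference in genotype effect it gave 0 to 4 genes called, a median of -2.22 to -0.96, Fos from -3.22 to 0.58 and Fosb from -2.32 to 1.48. In the KO libraries alone the tissue median was 0.55, with Jun at -0.20, Egr1 at -0.33 and Ier3 at -0.057, and in the WT libraries alone it was 2.08. Between KO ureter and KO kidney 1, 1 gene was over 2-fold apart with TMM scaling and 3 were with library size alone or with TPM. The 10 ureter ratios kept their sign under all 5 other settings. Over all genes, the kidney comparison called 2 genes in edgeR, 44 in DESeq2 and 0 with the replicate block, and the difference in genotype effect 19 in edgeR and 484 in DESeq2, none of them among the 10.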
